A study of Mus musculus with 6 samples.

Results

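Lung venous endothelium was examined in single-cell libraries of mouse lung at postnatal day 21. A barcode, which stands for 1 captured cell, was taken as venous endothelial when it had at least 1500 unique molecular identifiers (UMIs, 1 per captured transcript) in the Bdnf libraries or 700 in the Hgf libraries and at most 25% of them from mitochondrial genes. It also had to show at least 2 of the endothelial genes Pecam1, Cldn5, Egfl7 and Tie1, and at least 2 of the venous genes Slc6a2, Prss23, Bst1, Vcam1 and Vwf, among them Slc6a2 or Prss23. Barcodes with a UMI of the arterial genes Gja5 or Bmx or of the lymphatic gene Prox1 were left out, as were those with more than 1 UMI over the aerocyte genes Car4 and Ednrb or over Col1a2, Ptprc, Etv5 and Rtkn2, which mark other lineages. This left 2378 of 70426 lung barcodes, of which 29188 were endothelial. The members were therefore chosen by measured values, and the levels of the genes in the rule describe the choice.

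The Bdnf pair of libraries compared Bdnf lox/lox controls with Bdnf iPCKO mice, and the Hgf pair compared Hgf lox/lox controls with Hgf iPCKO mice. Series of 4 values give the Bdnf pair first and in each pair the control first. In the iPCKO mice, the floxed gene for brain-derived neurotrophic factor or for hepatocyte growth factor was deleted postnatally by the Pdgfrb(BAC)-CreERT2 transgene, a driver active in pericytes and other PDGFRB-expressing mural and mesenchymal cells. The controls carried the floxed alleles without this transgene, so that the presence of CreERT2 and the deletion cannot be told apart, and all pups received 50 µg tamoxifen per injection. Each library pooled 2 littermates taken irrespective of sex, and leukocytes and erythrocytes were depleted with CD45 and Ter119 beads. With 1 library per genotype no difference below has a replicate check or a test. Intervals are exact 95% intervals that cover counting error only, and molecules of 1 cell are not independent.

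Pulmonary veins and venules carry oxygenated blood from the alveolar capillaries towards the left atrium. Their endothelium is specified by the transcription factor COUP-TFII (encoded by Nr2f2), which restrains Notch signalling and the arterial programme, and by the receptor EPHB4, whose ligand ephrin-B2 marks arteries. Venules are also a usual site of leukocyte adhesion, and lung endothelium clears circulating amines such as noradrenaline through transporters of the SLC6 family.

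The members held 505, 614, 429 and 830 barcodes with a median of 5502, 4267, 3075 and 2539 UMIs. Their UMIs summed to 3256694, 3005588, 1578166 and 2667932, and all levels below are CPM, the UMIs of a gene per 1000000 UMIs of this total. The whole libraries held 69403166 to 186701379 UMIs. Scrublet called 4, 18, 5 and 20 of the members doublets, and 2 member barcodes occurred as members in another library. Xist had at most 1 UMI in the members of any library, and Ddx3y, on the Y chromosome, had 159 to 179 CPM, so that the members of all 4 libraries carried transcripts of male cells. Bdnf had 7, 4, 7 and 8 UMIs and Hgf 9, 15, 11 and 4 UMIs, so neither deletion could be followed in these cells. Endothelium is also not among the cell types named above for the driver. The authors reported a reduction of Bdnf or Hgf transcripts in lung pericytes of the respective iPCKO mice.

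Of the genes in the rule, Slc6a2 encodes the noradrenaline transporter and lies at chr8:93686707-93728295 on the plus strand of GRCm39. It had 1222 (1184 to 1260), 866 (833 to 900), 2212 (2139 to 2287) and 1551 (1504 to 1599) CPM, with both controls above their iPCKO library and the Bdnf libraries below both Hgf libraries. Prss23, a serine protease gene at chr7:89152034-89176756, had 1952, 1980, 1402 and 1549 CPM, and Vwf, which encodes von Willebrand factor (chr6:125523737-125663642), had 2068, 1691, 2469 and 1945 CPM. Bst1, which encodes an ADP-ribosyl cyclase (chr5:43976227-44001328), was lower with 82.0, 57.9, 196 and 86.6 CPM. Vcam1, the ligand for leukocyte integrins at chr3:115903598-115923355, had 247, 156, 131 and 51.7 CPM. Vcam1, Bst1, Slc6a2 and Vwf were each lower in the iPCKO library of both pairs, while Prss23 had log2 ratios of 0.02 and 0.14. These genes chose the members, so the ratios describe the choice. Members with only 2 of them made up 23.1% of Bdnf iPCKO against 20.2% of Bdnf control members. In the Hgf pair they made up 30.2% of iPCKO against 19.1% of control members.

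The rule had loose and strict members. Of all members, 102, 142, 82 and 251 had only 2 of the 5 venous genes, and in these Nr2f2 stood at 194, 265, 230 and 172 CPM and Cpe, a venous marker encoding carboxypeptidase E, at 249, 260, 67.0 and 113 CPM. In the 211, 309, 151 and 385 members with 3 venous genes, Nr2f2 had 543, 524, 458 and 606 CPM and Cpe 668, 537, 566 and 677 CPM. Efnb2, which encodes ephrin-B2, went the other way, from 532, 434, 551 and 527 CPM with 2 genes to 113, 248, 134 and 164 CPM with 3. Just outside the rule, the 458, 596, 178 and 537 barcodes with Slc6a2 or Prss23 as their only venous gene had 63.3, 52.6, 57.4 and 93.0 CPM of Nr2f2 and 3.69, 4.78, 0 and 7.40 CPM of Cpe. By Nr2f2 and Cpe, members with 2 venous genes thus lay between both groups. Efnb2 stood at 536, 680, 675 and 675 CPM outside the rule, in Bdnf control almost as in members with 2 genes. The Hgf iPCKO library had the largest portion of members with 2 genes, 30.2% against 19.1% in the Hgf control and 20.2 and 23.1% in the Bdnf libraries. Of the barcodes that met the endothelial and venous steps, 39.5, 35.8, 60.9 and 57.0% were kept by the exclusion genes.

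The venous label was checked with markers outside the rule, against general capillary (gCap), arterial and lymphatic barcodes of the same library. The gCap barcodes were chosen by Gpihbp1, Kit, Aplnr and Plvap, and the arterial ones by Gja5, Bmx, Gja4, Dkk2 and Sox17. Lymphatic barcodes were chosen by Prox1 with Ccl21a, Mmrn1, Reln or Lyve1. Like the members, the classes were also set by exclusion of one another's markers, so the differences describe the classes and are no test. Nr2f2 (chr7:70001692-70016519, minus strand) had 514 (490 to 539), 491 (466 to 516), 516 (481 to 552) and 523 (496 to 551) CPM in the members, against 36.4, 47.6, 35.7 and 51.1 CPM in gCap and 34, 52.7, 8.98 and 39.4 CPM in arterial barcodes. The intervals of the 4 venous levels of Nr2f2 overlapped. Lymphatic barcodes had more, with 1050, 999, 1262 and 1602 CPM. Cpe had 651, 580, 680 and 593 CPM in the members. It was 6.64 to 8.25 above gCap on the log2 scale but only 0.41 to 1.5 above arterial barcodes.

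Of the 12 venous markers outside the rule, 10 had at least 50 UMIs in the members of every library, and 6 of these were past 2-fold above both gCap and arterial barcodes in all 4 libraries, namely Nr2f2, Car8, Amigo2, Csrp2, Vegfc and Lrg1. Over all genes with that many UMIs, 51 of 5250 (0.971%) were. Against lymphatic barcodes, Lrg1 lay between -0.70 and 0.31 on the log2 scale and Nr2f2 between -1.62 and -1.03. Car8, Amigo2, Csrp2 and Vegfc were at least 1.09 above them. Amigo2, an adhesion molecule gene, had 469, 413, 791 and 479 CPM in the members, and Vegfc, which encodes a ligand of VEGFR3, had 375, 276, 355 and 237 CPM. Ephb4 was above gCap by only 0.28 to 0.56 on the log2 scale. Selp, encoding P-selectin, was 2.95 to 5.47 above gCap and between -1.44 and 1.61 against arterial barcodes. Ackr1 and Moxd1 were below 50 UMIs in at least 1 library. Of the 7 arterial genes with enough UMIs, Gja4, Efnb2, Hey1, Dll4 and Cxcl12 were past 2-fold lower than in both gCap and arterial barcodes of all 4 libraries, as were 12 of the 5250 genes (0.229%), and none was past 2-fold higher. Gja4 was itself used to choose the arterial barcodes, and the members had been chosen without Gja5 and Bmx. The general capillary list summed to 4988, 4245, 4566 and 3462 CPM in the members against 7653, 6094, 7939 and 5452 CPM in gCap. Gpihbp1 was detected in 63.4, 64.5, 60.1 and 81.9% of members. The lymphatic list summed to 3875, 3350, 2432 and 2668 CPM in the members and 1677, 2356, 1318 and 2578 CPM in gCap. The venous and arterial values go with the venous label, while the members also held transcripts of capillary genes.

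Beyond the listed markers, the genes that stood highest above both other classes included receptors and lipid mediators. Cysltr1, which encodes a receptor for cysteinyl leukotrienes, had 52.2, 52.2, 48.2 and 45.7 CPM in the members and below 1 CPM in all gCap and arterial series. Ch25h, cholesterol 25-hydroxylase, had 298, 303, 501 and 949 CPM against at most 24.2 CPM in gCap and 15.1 CPM in arterial barcodes. Lymphatic barcodes had 91.7 to 123 CPM of Ch25h. Mmp16, a membrane-bound metalloproteinase gene, had 108, 75.9, 94.1 and 37.6 CPM, and Lhx6, a LIM homeobox gene, 50.4, 31.9, 63.4 and 58.8 CPM. Lymphatic barcodes had at most 19.8 CPM of Mmp16 and 8.11 CPM of Lhx6. Ackr3, the scavenging receptor for CXCL12, was the most abundant of these genes in 3 libraries, with 1595, 1520, 1135 and 887 CPM, against 114 to 203 CPM in gCap. Lymphatic barcodes had 456, 633, 50.5 and 119 CPM of Ackr3.

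Several of these leading genes were shared with lymphatic endothelium. Fgl2, which encodes a fibrinogen-like protein, had 332, 289, 502 and 520 CPM in the members and 1040, 697, 440 and 1341 CPM in lymphatic barcodes. Nrp2, a co-receptor for VEGF-C and semaphorins, had 135, 143, 179 and 92.6 CPM against 481 to 1039 CPM. Pde2a, a cyclic nucleotide phosphodiesterase gene, was higher in lymphatic barcodes in all 4 libraries and Lbp, which encodes lipopolysaccharide-binding protein, in 3. By contrast, Cygb (cytoglobin) had 237, 295, 240 and 360 CPM in the members and 9.19 to 113 CPM in lymphatic barcodes, and Lpcat2, an enzyme of platelet-activating factor synthesis, had 38.1, 20.6, 104 and 70.3 CPM against at most 5.04 CPM. Dnm3 (dynamin 3) had 135, 99.6, 150 and 52.7 CPM against at most 44.2 CPM. Cyp1a1, a target of the aryl hydrocarbon receptor, differed most between libraries, with 23.3, 51.2, 172 and 470 CPM.

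**Figure D1:**
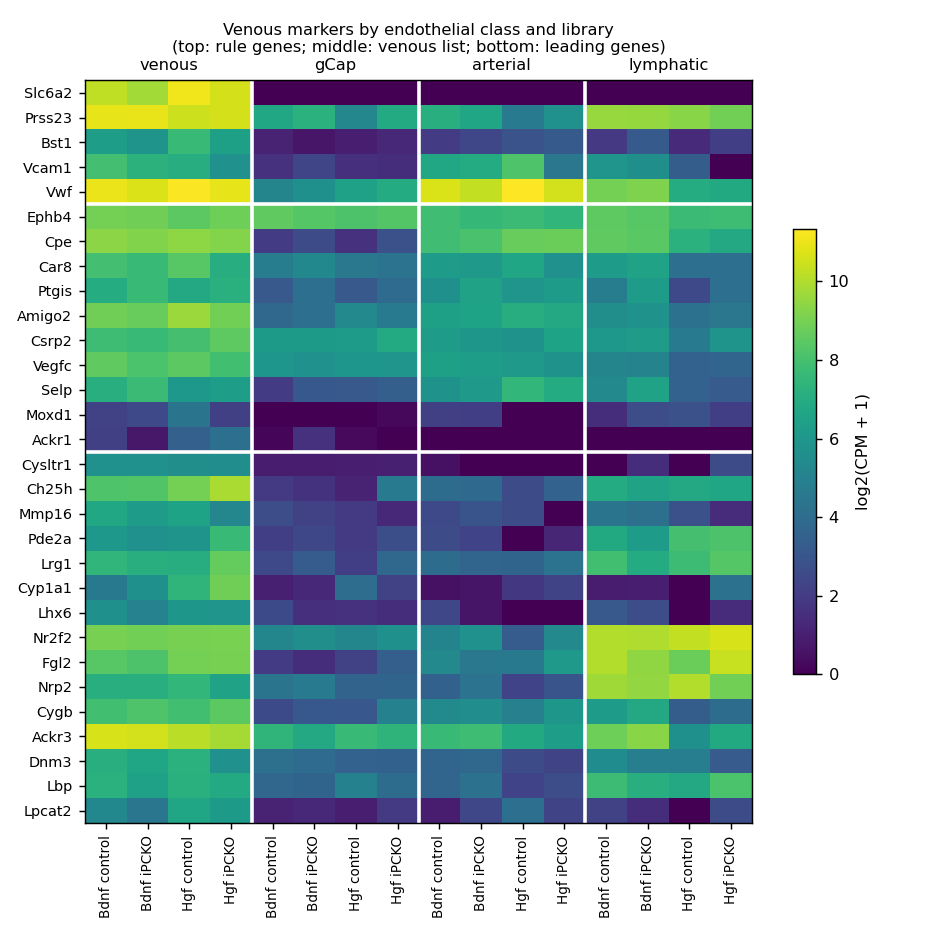
Level of venous genes (rows) as log2(CPM + 1) in the venous, gCap, arterial and lymphatic barcodes of each library (columns), with the 5 genes of the rule on top, listed markers in the middle and the leading genes below. The comparison classes were defined without Slc6a2, Nr2f2 reaches 1602 CPM in lymphatic barcodes against 491 to 523 CPM in venous ones, and Cysltr1 stays between 45.7 and 52.2 CPM in venous barcodes and below 1 CPM in gCap and arterial ones.

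The members were not uniform. To compare them at 1 depth, each member was thinned to 1500 UMIs, which left out 37 and 104 shallower members of the Hgf libraries, and split by whether a Slc6a2 UMI remained. This gave 309, 333, 311 and 491 members with Slc6a2 and 196, 281, 81 and 235 without. Members with Slc6a2 had more Amigo2, with 608, 533, 877 and 601 CPM against 267, 277, 448 and 223 CPM. They also had more Nr2f2, with 597, 541, 576 and 651 CPM against 394, 434, 332 and 278 CPM. Ephb4 had 591, 541, 376 and 507 CPM with and 378, 393, 238 and 366 CPM without Slc6a2. All 3 genes were higher with Slc6a2 in each of the 4 libraries.

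Members without Slc6a2 had more Kit, the receptor for stem cell factor and a gCap marker, with 209, 226, 207 and 291 CPM against 101, 76.5, 58.4 and 54.1 CPM. Efnb2 was higher in them as well, with 278, 311, 338 and 410 CPM against 113, 228, 140 and 169 CPM. Gpihbp1, which anchors lipoprotein lipase on capillaries, showed no such order, with 283, 307, 327 and 830 CPM with Slc6a2 and 234, 274, 457 and 823 CPM without. Mgp, encoding matrix Gla protein, was higher without Slc6a2 in 3 libraries (753, 662 and 886 CPM against 309, 405 and 569 CPM) and lower in Hgf iPCKO (736 against 1496 CPM). The split used a gene of the rule, and members were chosen before thinning, so that some of those without Slc6a2 had a UMI of it among all their UMIs. Before thinning 74.5% of Bdnf control and 70.8% of Bdnf iPCKO members had one, against 61.2 and 54.2% after it.

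**Figure D2:**
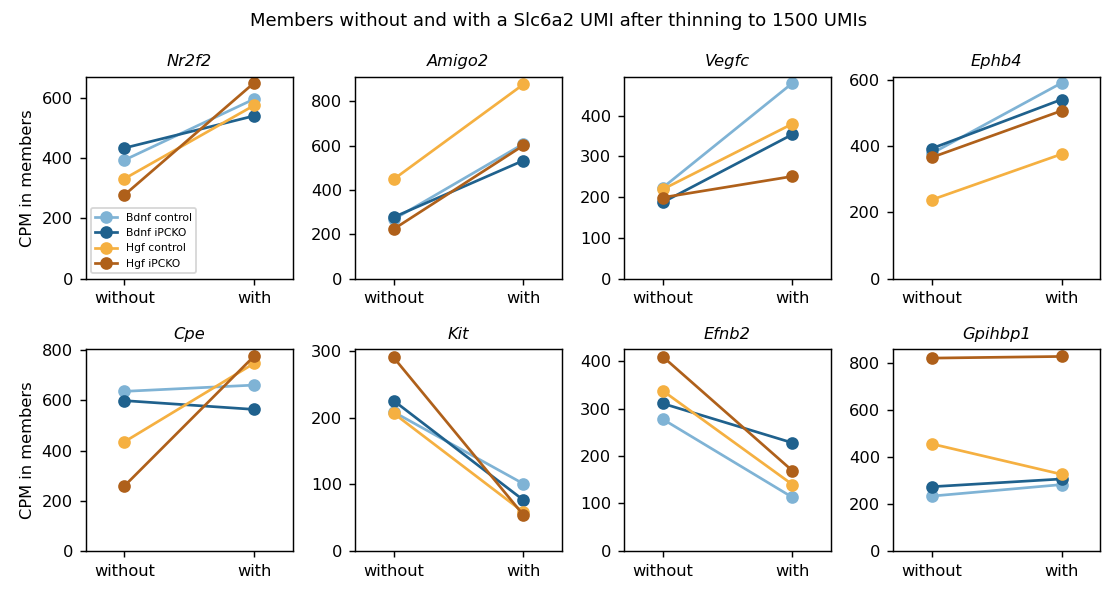
CPM of 8 genes in members without and with a Slc6a2 UMI after thinning to 1500 UMIs, 1 line per library and all axes from 0. Lines of Nr2f2, Amigo2, Vegfc and Ephb4 go up and those of Kit and Efnb2 go down from members without to members with Slc6a2 in all 4 libraries, while Cpe goes up from 636 to 661 CPM in Bdnf control, from 435 to 748 CPM in Hgf control and from 259 to 777 CPM in Hgf iPCKO and down from 599 to 564 CPM in Bdnf iPCKO.

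Venous members made up 8.35% (7.66 to 9.07) of endothelial barcodes in Bdnf control and 6.97% (6.45 to 7.52) in Bdnf iPCKO, a log2 ratio of -0.26 (-0.423 to -0.0966). In the Hgf pair they made up 7.01% (6.39 to 7.68) and 10.1% (9.46 to 10.8), a log2 ratio of 0.53 (0.366 to 0.688). Because detection depends on depth, the rule was repeated with every endothelial barcode thinned to 1500 UMIs, which left out 1252 and 1964 barcodes of the Hgf libraries. The endothelial and exclusion steps were also applied again to the thinned counts. This left 4973, 6943, 4420 and 5652 endothelial barcodes of 6050, 8807, 6117 and 8214, so the thinned shares have smaller denominators. The shares were then 11.2, 9.66, 9.05 and 13.5%, and the log2 ratios -0.21 (-0.364 to -0.0568) and 0.57 (0.408 to 0.738). The 2 control libraries, which both lack the transgene, differed by -0.25 (-0.430 to -0.0727) between Hgf and Bdnf control, about as much as the Bdnf pair. With at least 3 venous genes required the ratio of the Hgf pair was 0.31. The Bdnf pair then had 403 members among 6050 endothelial barcodes in the control and 472 among 8807 in Bdnf iPCKO. Its share thus stayed lower in Bdnf iPCKO.

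**Figure D3:**
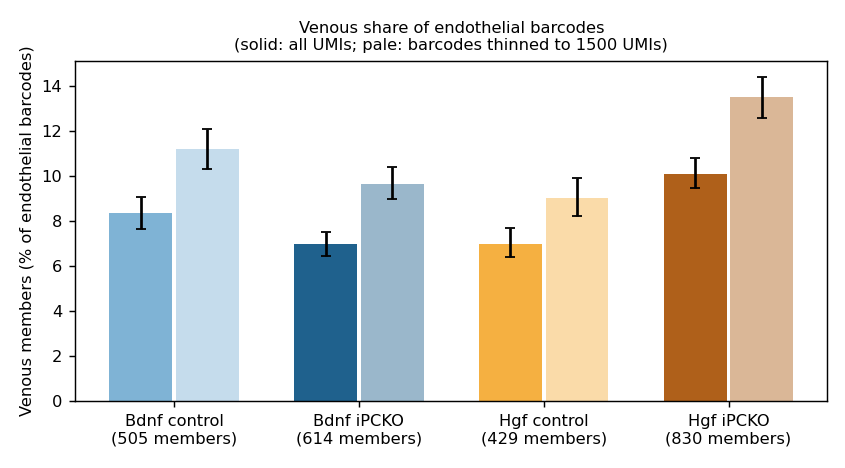
Venous members as a percentage of endothelial barcodes in each library, with all UMIs (solid) and after thinning to 1500 UMIs (pale), where bars start at 0 and error bars are exact Clopper-Pearson 95% intervals for counting error. The Hgf iPCKO library is highest at 10.1% and 13.5%, and the other 3 lie between 6.97 and 8.35% and between 9.05 and 11.2%.

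The next comparison asked how venous endothelium differed after deletion of Bdnf from pericytes. Of 17 genes of the interferon response and antigen presentation, 6 were past 2-fold lower in Bdnf iPCKO members, and several clock genes and Timp3, an inhibitor of metalloproteinases, were higher. Of 9935 genes with at least 50 UMIs over both libraries, 143 (1.44%) were past 2-fold higher and 157 (1.58%) past 2-fold lower, and the median log2 ratio over all of them was -0.04. Timp3 had 1545 CPM in the control and 3365 CPM in Bdnf iPCKO (log2 ratio 1.12, 1.07 to 1.17). Kdr, which encodes VEGFR2, had 330 and 647 CPM (0.97, 0.86 to 1.08) and so stayed just under 2-fold.

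Of the 10 genes that led on the higher side, Clca1, Reg3g, Scgb3a1, Retnla, Chia1, Scgb1a1 and Lyz1 encode secretory proteins of airway and alveolar epithelium or macrophages. Few barcodes carried some of them. In Bdnf iPCKO, 1 member with 10546 UMIs and 3 venous genes held 155 of 159 Clca1, 278 of 285 Reg3g and 229 of 268 Scgb3a1 UMIs. Another member, with 31662 UMIs, held 199 of 360 Retnla and 186 of 646 Chia1 UMIs, and neither was called a doublet. Without the 1 barcode of the pair that held most of its UMIs, Clca1 had 4 UMIs left in Bdnf iPCKO and 2 in the control, and Reg3g 7 and 6, too few for a ratio. The log2 ratio of Scgb3a1 went from 3.83 to 1.06 and that of Retnla from 2.92 to 1.76. Lyz1 went from 1.63 to 0.36 without the barcodes that Scrublet called doublets and to 0.56 with at most 15% mitochondrial UMIs, both under 2-fold.

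Scgb1a1, the main secretory protein of club cells, was spread over more members, with 1012 and 3833 CPM (1.92, 1.86 to 1.98), and was also higher in gCap (1.14) and arterial barcodes (1.35). Over the club and ciliated list, the members had a summed level of 1863, 4640, 1850 and 3268 CPM, and barcodes with fewer than 100 UMIs, which hold mostly free RNA, had 16034, 24067, 18610 and 38781 CPM. Over the alveolar type 2 list the members had 3245, 5178, 1721 and 2067 CPM. In barcodes with fewer than 100 UMIs this list had 25901, 23557, 34338 and 14669 CPM, and so was lower in both iPCKO libraries. Both sums were thus higher in the members of both iPCKO libraries, as in their gCap barcodes. In the Hgf pair, though, 1 of the 5 club and ciliated genes, Scgb1a1, lay above 0 and 4 below, with a median of -0.19. Of the other lineage lists, fibroblast genes summed to 62.60 to 167.1 CPM with Lum at 0, pericyte and smooth muscle genes to 57.66 to 213.5 CPM with Pdgfrb at 1.54 to 13.5 CPM, and immune genes to 353.1 to 755.9 CPM. Alveolar type 1 genes summed to 1507, 1704, 1394 and 1680 CPM, and 2 of 7, Hopx (1.10) and Aqp5 (1.34), were past 2-fold higher in Bdnf iPCKO. Without its richest barcode Hopx had 0.98, just under 2-fold. Megakaryocyte and platelet genes summed to 47.18, 10.15, 6.653 and 18.05 CPM and erythroid genes to 43.30, 13.97, 15.21 and 61.10 CPM. In each of these lists both genes with enough UMIs were past 2-fold lower in Bdnf iPCKO, with medians of -2.67 and -1.78, and 1 member of Bdnf control held 65 of 74 UMIs of the platelet chemokine gene Ppbp. The part of transcripts of these lineages in the results was not tested.

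The remaining leading genes on the higher side were carried by many members. Igfbp3, an insulin-like growth factor binding protein gene at chr11:7156086-7164179, had 6.76 (4.23 to 10.2) and 34.3 (28.0 to 41.6) CPM, a log2 ratio of 2.32 that was 2.19 without the richest barcode. Apold1, an endothelial early response gene, had 34.1 and 116 CPM (1.77, 1.46 to 2.09). Between the controls it was also past 2-fold, with a log2 ratio of 1.28 for Hgf over Bdnf control. Meg3, a maternally expressed long non-coding RNA, had 7.37 and 33.9 CPM (2.18, 1.55 to 2.91). The gCap ratios of these genes were 1.01, 1.46 and 1.88, so each was higher there too.

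The 10 leading genes on the lower side were Mki67, Ccna2, Hmmr, Cenpf, Prc1, Cenpe, Top2a, Cdk1, Anln and Tpx2, which all act in S phase or mitosis. Mki67, the proliferation marker, had 239 UMIs in the control and 2 in Bdnf iPCKO (log2 ratio -6.47, -9.84 to -4.92), and Hmmr had 80 and 0 UMIs. They came from few cells. In Bdnf control, 8 of 505 members (1.58%, 0.686 to 3.10) had at least 2 of Mki67, Top2a, Ccna2, Cdk1 and Birc5, and they held 98.7% of the UMIs of these 5 genes. No such member was found among 614 in Bdnf iPCKO (upper bound 0.599%), 1 among 429 in Hgf control and none among 830 in Hgf iPCKO (upper bound 0.443%). Among gCap barcodes the shares were 1.05, 0.345, 0.0480 and 0%. Without the 8 members, 133 genes were past 2-fold higher and 124 lower of 9858.

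The 17 genes of antigen presentation and the interferon response had a median log2 ratio of -0.96, and none was past 2-fold higher. The 6 past 2-fold lower were the immunoproteasome subunit Psmb9 (-2.25), the interferon regulatory factor Irf7 (-1.64), the ubiquitin-like modifier Isg15 (-1.60), Ifit3 (-1.30), Ifit1 (-1.22) and the surface protein Ly6a (-1.16). Isg15 had 17.5 (13.3 to 22.7) CPM in the control and 5.66 (3.29 to 9.06) CPM in Bdnf iPCKO. The MHC class I chain B2m had 1794 and 918 CPM (-0.97, -1.03 to -0.90), H2-D1 2529 and 1397 CPM (-0.86) and H2-K1 670 and 365 CPM (-0.87), all just under 2-fold. Irf1 (0.49) and Cd74 (0.07) lay above 0. In gCap, B2m had a log2 ratio of -1.06 and Isg15 of -1.18, and in arterial barcodes -0.98 and -1.16.

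Of the 13 immediate-early genes, 12 lay above 0 in Bdnf iPCKO members with a median log2 ratio of 0.49, none past 2-fold. Zfp36, whose product destabilises inflammatory mRNAs, had 1610 and 2973 CPM (0.88, 0.84 to 0.93), and Atf3 had 189 and 348 CPM (0.88). Hgf control members stood above Bdnf control members for all 13, with a median of 0.79, so the 2 control libraries differed more than the Bdnf pair did.

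Lists that bear on venous function differed little in the Bdnf pair. Of 12 leukocyte adhesion genes with enough UMIs none was past 2-fold (median -0.11), and Icam1 had 739 and 1183 CPM (0.68) and Selp 137 and 211 CPM (0.62). Of 10 genes of coagulation, Plat, tissue plasminogen activator, was past 2-fold higher with 22.7 and 46.6 CPM (1.03, 0.62 to 1.46), and the list's median was 0.19. None of 14 genes of vasoactive signalling was past 2-fold (median -0.04). Among the matrix genes, the basement membrane collagens Col15a1 (84.7 and 30.9 CPM, -1.45) and Col18a1 (39.6 and 17.0 CPM, -1.21) were past 2-fold lower, and Col4a1 had 1185 and 753 CPM (-0.66). Of the angiocrine ligands, Wnt9b (12.6 and 43.9 CPM, 1.79) and the chemokine Cxcl1 (12.9 and 30.3 CPM, 1.22) were higher. Without the richest barcode the ratios of Cxcl1, Plat and Col18a1 were 0.50, 0.82 and -0.99, under 2-fold. None of the BMP and TGF-beta, Notch, KLF and shear, heat shock, glucocorticoid or pericyte ligand receptor genes was past 2-fold, with medians of -0.00, 0.04, 0.24, 0.02, 0.37 and -0.05. Of the arterial list, the netrin receptor gene Unc5b was higher (5.53 and 16.6 CPM, 1.56) and Stmn2 lower.

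The Hgf comparison asked the same of pericyte-derived hepatocyte growth factor, and here more genes differed. Output genes of the circadian clock and lipoprotein lipase were higher in Hgf iPCKO members, and 10 of 16 interferon and antigen presentation genes, the flow-responsive Klf2 and Thbd, and Calcrl were lower. Of 8822 genes with at least 50 UMIs, 333 (3.77%) were past 2-fold higher and 445 (5.04%) lower, with a median log2 ratio of -0.06. Thus 42.8% of these genes were on the higher side. Scaled by the median of ratios instead of total UMIs, 412 were higher and 356 lower, or 53.6% on the higher side. The control libraries of the 2 pairs, compared in the same way, had 336 (3.63%) higher and 351 (3.80%) lower of 9247, more than the Bdnf pair and nearly as many as the Hgf pair. Both pairs share a library with this comparison, and it is given as a yardstick for 2 libraries without the transgene.

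Doc2b, a calcium-sensing gene of vesicle fusion at chr11:75659792-75686907, led the higher side with 1 UMI in Hgf control and 281 in Hgf iPCKO, or 0.634 and 105 CPM (log2 ratio 6.79, 4.89 to 12.69). In the Bdnf libraries it had 1.54 and 2.00 CPM. Lpl, lipoprotein lipase, had 54.5 (43.6 to 67.3) and 817 (783 to 852) CPM (3.90, 3.6 to 4.23) against 63.3 and 106 CPM in the Bdnf pair. Gpihbp1, which holds this enzyme at the capillary surface, had 360 and 841 CPM (1.22, 1.09 to 1.36). Mylip, which encodes a ubiquitin ligase that degrades lipoprotein receptors, had 90 and 865 CPM (3.26, 3.02 to 3.52), and Pik3ip1, an inhibitor of PI3-kinase, 24.1 and 272 CPM (3.48, 3.03 to 4.01). Igfbp3 had 3.80 and 97.8 CPM (4.57, 3.54 to 6.14), and Lhfpl3, a tetraspan protein gene, 0.95 and 63.3 CPM (5.65, 3.77 to 8.70).

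These higher genes were not particular to the members by their values in other classes. In gCap, Doc2b had a log2 ratio of 6.52, Lpl of 3.0, Mylip of 3.57, Pik3ip1 of 2.93, Igfbp3 of 2.86 and Lhfpl3 of 2.96. Gpihbp1 had 0.09 in gCap and 1.22 in the members. The gCap barcodes were chosen partly by Gpihbp1, so these ratios cannot be set against each other. The difference between the classes was not tested.

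Clock genes differed together. Of 10 with enough UMIs, 8 were past 2-fold higher and 1 lower in Hgf iPCKO members, with a median log2 ratio of 2.82. The listed PAR-bZIP output factors Dbp (3.17 and 118 CPM, 5.08) and Tef (22.2 and 234 CPM, 3.38) were higher, as was Hlf (13.9 and 192 CPM, 3.75), a leading gene of the pair and a factor of the same family that is not on the list. The repressors Nr1d1 (13.9 and 258 CPM, 4.18), Nr1d2 (2.57), Per2 (7.60 and 81.7 CPM, 3.37), Per3 (3.08), Ciart (2.21) and Per1 (1.19) were higher as well. Arntl, which encodes the activator BMAL1, was lower with 46.9 and 9.0 CPM (-2.36, -3.11 to -1.70). Its partner Clock had 64.0 and 72.3 CPM (0.17). In the Bdnf pair Per2 (1.74), Per3 (1.17), Tef (1.15) and Nr1d2 (1.03) were past 2-fold higher and Npas2 (-2.46) lower, with a median of 0.60 over 10 genes. Without its richest barcode Npas2 had 40 and 7 UMIs left, and Nr1d2 fell just under 2-fold. Outside the list, Hlf had a log2 ratio of 1.23 there. The ratios of Per2 in gCap were 1.58 in the Bdnf and 3.6 in the Hgf pair. Summed over the clock list, the members had 305.1, 440.5, 305.4 and 1232 CPM. Barcodes that hold mostly free RNA had more, with 779.7, 903.7, 673.7 and 1580 CPM, and were also higher in both iPCKO libraries. In the Hgf pair the sum rose from 290.4 to 921.2 CPM in arterial and from 268.8 to 769.7 CPM in lymphatic barcodes. In gCap it rose from 357.5 to 1037 CPM. The higher sum was thus not particular to the members, and the part of free RNA was not tested.

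Of the 7 glucocorticoid-response genes, Fkbp5 (29.5 and 223 CPM, 2.91), Zbtb16 (66.5 and 184 CPM, 1.46) and Per1 were past 2-fold higher in Hgf iPCKO members, with a median of 0.84. Fkbp5 encodes a co-chaperone of the glucocorticoid receptor. Klf9 had 525 and 938 CPM (0.84) and Tsc22d3 238 and 394 CPM (0.73).

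On the lower side, 5 of the 10 leading genes came from single cells. The neutrophil granule genes Mpo, Elane and Prtn3 had 177, 140 and 120 UMIs in Hgf control, all in 1 member with 18511 UMIs and all 5 venous genes, which was also the only cycling member of that library. The chemokine genes Cxcl9 and Cxcl10 had 305 and 65 UMIs, all in another member with 8765 UMIs. Neither was called a doublet. Without these barcodes 0 to 2 UMIs of each gene were left in the pair, so that there was nothing to compare. Over the pair, 421 of 445 lower and 313 of 333 higher genes kept at least 50 UMIs without their richest barcode, and 375 and 275 of these were still past 2-fold. In the Bdnf pair 138 of 157 lower and 126 of 143 higher genes kept 50 UMIs, and 111 and 90 were still past 2-fold.

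**Figure D4:**
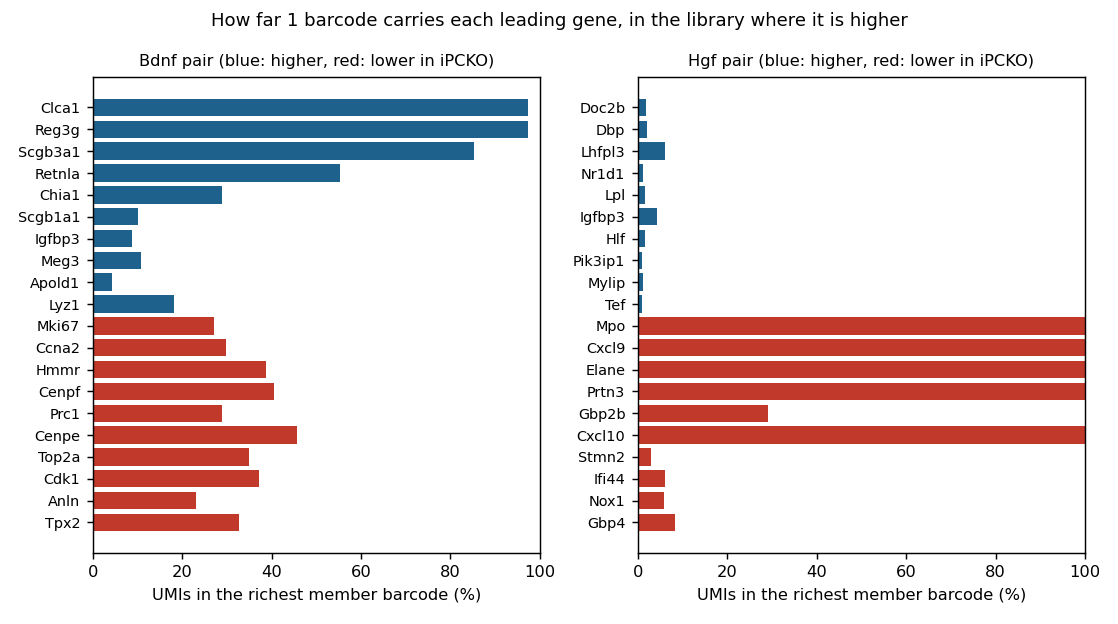
Percentage of a gene's UMIs held by its richest member barcode, in the library where the gene is higher, for the 10 leading genes on each side of the Bdnf and Hgf pairs. Mpo, Elane, Prtn3, Cxcl9 and Cxcl10 reach 100%, Clca1 and Reg3g 97.5%, Scgb3a1 85.4% and Retnla 55.3%, whereas the bars of the higher genes of the Hgf pair are short.

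The other leading genes of the lower side were spread over members. Stmn2, which encodes the microtubule regulator stathmin 2 (chr3:8574151-8626667), had 132 (120 to 145) and 29.3 (23.5 to 36.1) CPM in the Bdnf and 134 (117 to 154) and 9.75 (6.37 to 14.3) CPM in the Hgf libraries. Its log2 ratios were -2.16 and -3.76, so that both controls were alike and both iPCKO libraries lay below them. Nox1, an NADPH oxidase gene, had 49.7, 22.0, 44.4 and 2.62 CPM (-1.17 and -3.99), again with both iPCKO libraries below both controls. The interferon-inducible Ifi44 had 67.9, 8.65, 62.1 and 4.12 CPM (-2.95 and -3.86) and the guanylate-binding protein gene Gbp4 299, 81.8, 52.3 and 4.25 CPM (-1.87 and -3.57). Gbp2b had 58 UMIs in Hgf control and 0 in Hgf iPCKO. In gCap of the Hgf pair, Stmn2 had a log2 ratio of -2.51, Ifi44 of -4.14, Gbp4 of -3.54 and Gbp2b of -6.60. These genes were thus lower there too, and Nox1 had no ratio there.

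Of 16 genes of antigen presentation and the interferon response with enough UMIs, 10 were past 2-fold lower in Hgf iPCKO members and none higher, with a median log2 ratio of -1.37. Isg15 had 42.5 (32.9 to 53.9) and 6.0 (3.43 to 9.74) CPM (-2.79) and Ifit1 48.8 and 10.9 CPM (-2.15). B2m had 1701 and 549 CPM (-1.63) and H2-K1 1147 and 496 CPM (-1.21). The MHC class II chain H2-Aa (69.7 and 13.5 CPM, -2.36) and the invariant chain Cd74 (33.6 and 12 CPM, -1.48) were also lower, with -0.30 and 0.07 in the Bdnf pair. Cd74 had -0.71 without its richest barcode. Ly6a, past 2-fold lower in Bdnf iPCKO, had 1045 and 1146 CPM in the Hgf libraries (0.13). In gCap the Hgf pair had log2 ratios of -1.78 for B2m, -2.18 for Isg15 and -2.94 for H2-Aa. The summed immune markers were 429.3 CPM in Hgf control and 353.1 CPM in Hgf iPCKO members, and their part in these values was not tested. Between the controls, 3 genes of the list were past 2-fold higher in Hgf control and none lower.

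All 9 genes of the KLF and shear list lay below 0 in the Hgf pair, with a median of -0.55, and 2 were past 2-fold lower. Thbd, thrombomodulin, which turns thrombin towards activation of protein C, had 1561 (1500 to 1624) and 490 (464 to 517) CPM (-1.67, -1.77 to -1.57) and 1986 and 1949 CPM in the Bdnf pair. Klf2, a transcription factor induced by laminar flow, had 3139 and 1246 CPM (-1.33), but Bdnf control and Bdnf iPCKO members had only 794 and 995 CPM, so that Hgf iPCKO lay between the Bdnf libraries and Hgf control. Klf4 had 3732 and 2547 CPM (-0.55). In gCap, Thbd had -1.44 and Klf2 -1.31.

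Genes of haemostasis and vessel tone differed in both directions. Besides Thbd, annexin A5 (Anxa5, 279 and 138 CPM, -1.02) was lower, while tissue factor F3 (5.07 and 22.9 CPM, 2.10, 1.10 to 3.45) was higher in Hgf iPCKO members. The median of the 11 coagulation genes was -0.29. Of the vasoactive list, Ptgs1, cyclooxygenase 1, had 290 and 868 CPM (1.58, 1.44 to 1.73) and was past 2-fold higher. Calcrl, the receptor for adrenomedullin and calcitonin gene-related peptide, had 2351 and 950 CPM (-1.31, -1.38 to -1.23), whereas Ramp2, its partner protein, had 1643 and 3181 CPM (0.95, 0.89 to 1.02). In gCap, Ptgs1 had 3.20, Calcrl -1.75 and Ramp2 0.68.

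Of 11 leukocyte adhesion genes, Icam2 (188 and 89.6 CPM, -1.07) and Jam2 (299 and 146 CPM, -1.03) were past 2-fold lower, with a median of -0.42, and Jam2 was just under 2-fold without its richest barcode. Among the venous markers outside the rule, Lrg1, a leucine-rich glycoprotein gene, was past 2-fold higher (134 and 402 CPM, 1.58) and Car8 lower (333 and 132 CPM, -1.33), and the list's median was 0.22. Nr2f2 had a log2 ratio near 0 in both pairs. The elastic fibre genes Fbln2 (106 and 22.1 CPM, -2.26) and Fbln5 (393 and 173 CPM, -1.18) were lower, and Fbln2 differed between the controls as well (-1.85). Eln, elastin, had 4617, 4914, 2512 and 3071 CPM. Flt4, which encodes VEGFR3, was higher (34.2 and 72.7 CPM, 1.08) and so was Jag2 of the Notch list (15.2 and 33.7 CPM, 1.13). Hsph1 was the only heat shock gene past 2-fold (-1.32), and 8 of the 9 lay below 0. Medians of the BMP and TGF-beta, matrix, angiocrine, Notch, heat shock and immediate-early lists were -0.02, 0.09, -0.39, -0.09, -0.28 and -0.01. The matrix median turned to -0.17 with at least 3 venous genes and to -0.45 over 21 genes with at least 20 UMIs.

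**Figure D5:**
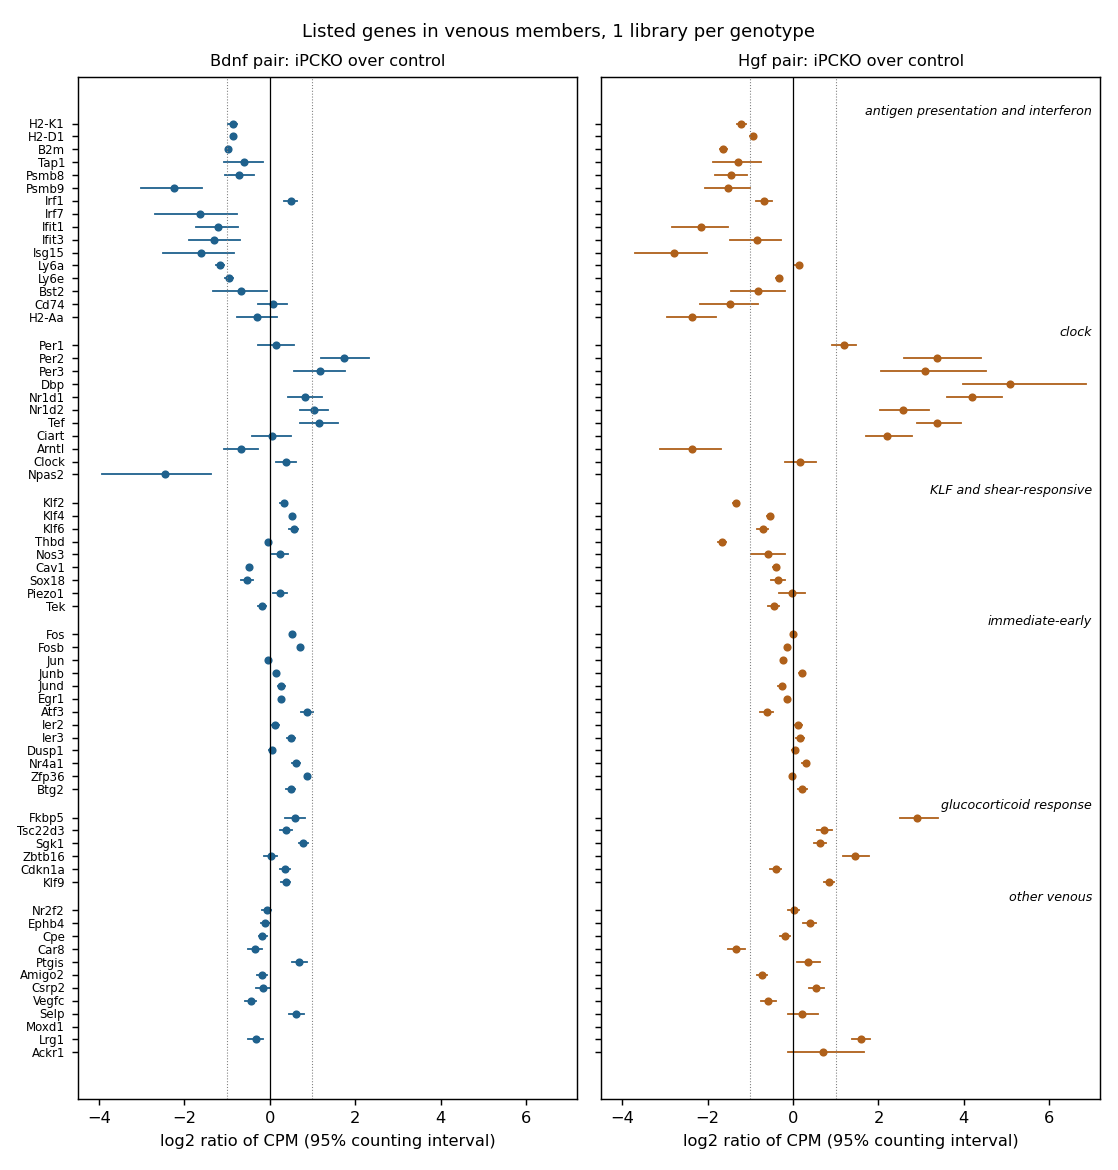
Log2 ratio of iPCKO over control CPM in venous members for genes of 6 lists, in the Bdnf pair (left) and the Hgf pair (right), with 95% counting intervals and dotted lines at 2-fold. Points are missing where the pair has fewer than 50 UMIs, and 1 listed gene is not shown. Most interferon genes lie left of 0 in both panels, with medians of -0.96 and -1.37, and 8 and 9 of 10 clock genes lie right of 0, with medians of 0.60 and 2.82.

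The 2 pairs share no library, and 8578 genes had at least 50 UMIs in both. Of these, 33 were past 2-fold higher in both, 41.2% of the 80 of the Bdnf and 11.8% of the 280 of the Hgf pair. Another 42 were lower in both, 45.2% of 93 and 9.81% of 428. Opposite directions were found for 7 genes, with Serpina3f higher in the Bdnf and lower in the Hgf pair and 6 genes the other way, among them the haemoglobin genes Hba-a1 and Hba-a2. The shared higher genes included Timp3 (1545, 3365, 904 and 2223 CPM), Igfbp3, Lhfpl3 and Mylip, the listed clock genes Per2, Per3, Nr1d2 and Tef, the clock genes Cry2 and Hlf outside the list, and Cyp1a1 and Cyp1b1. The shared lower genes included Stmn2, Nox1, Gbp2b, Gbp3, Gbp4, Gbp5, Gbp7, Gbp8, Gbp9, Ifi44, Ifit1, Isg15 and Psmb9. Without its richest barcode Gbp5 had -0.81 in the Bdnf pair, under 2-fold, and Gbp2b had only 41 and 0 UMIs in the Hgf pair. Of the shared higher genes, Cdkn1c, Col13a1, Egr2, Epb41l5, Mt1, Nr1d2, Rgcc and Scgb1a1 also fell under 2-fold in a pair this way, and Gm29216 kept no ratio in the Bdnf pair. Of the shared lower genes, Ccdc80, Cfap20dc, Ddx60, Kirrel3 and Tnfsf10 fell under 2-fold, and Cmpk2 and Gm43302 kept no ratio in the Hgf pair. These genes were named after their values were seen.

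Chia1, an acidic chitinase gene, was among the shared higher genes but was carried unevenly. It had 34.7, 215, 3.17 and 46.5 CPM, and 1 member with 20325 UMIs held 80 of its UMIs in Hgf iPCKO. Without this barcode 5 and 44 UMIs were left in the Hgf pair, too few for a ratio. Pla2g4a, the phospholipase that releases arachidonic acid, had 99.2, 46.2, 96.7 and 19.9 CPM (-1.10 and -2.27) and was lower in both pairs in the members, while in gCap its ratio was 0.28 in the Bdnf pair and the Hgf pair had only 6 and 24 UMIs, under the minimum of 50.

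Promoter sequence is shown for genes of the interferon and clock lists, since these lists differed in both pairs. The 250 bases before each start were taken from RefSeq (GRCm38.p6) and searched on both strands for GAAA repeated after 2 bases, a pattern of interferon-stimulated elements, and for CACGTG, the E-box bound by CLOCK and BMAL1. The first was found for 5 of 13 interferon-list genes with a promoter (38.5%) and 936 of 27025 genes overall (3.46%), and the second for 3 of 10 clock genes (30.0%) and 1854 genes (6.86%). Matches overlap one another in Isg15 and Bst2, and 1 of 3 matches of Ciart lies outside its stretch. Capitals mark the match, which in Ifit1 lies on the other strand and reads TTTC repeated after 2 bases, and each line runs 5′ to 3′ on the strand of the gene.
Ifit1: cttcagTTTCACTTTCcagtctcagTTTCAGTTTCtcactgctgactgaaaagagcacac
Isg15: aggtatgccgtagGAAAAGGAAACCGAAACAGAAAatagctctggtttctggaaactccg
Bst2: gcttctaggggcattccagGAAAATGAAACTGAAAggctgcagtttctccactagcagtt
B2m: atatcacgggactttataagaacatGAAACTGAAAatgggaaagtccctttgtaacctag
Per1: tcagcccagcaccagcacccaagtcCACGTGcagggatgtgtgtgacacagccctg
Tef: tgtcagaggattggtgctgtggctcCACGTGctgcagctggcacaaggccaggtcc
Ciart: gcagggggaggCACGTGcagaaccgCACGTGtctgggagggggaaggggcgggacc

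The stretches lie at chr19:34640779-34640838 (plus) for Ifit1, chr4:156200850-156200909 (minus) for Isg15, chr8:71537562-71537621 (minus) for Bst2 and chr2:122147523-122147582 (plus) for B2m. For Per1, Tef and Ciart they lie at chr11:69098758-69098813 (plus), chr15:81802521-81802576 (plus) and chr3:95882242-95882297 (minus). Of the genes shown, Isg15 and Ifit1 were past 2-fold lower in both pairs, B2m in the Hgf pair and Bst2 in neither, with 18.7, 11.6, 28.5 and 16.1 CPM. Tef was past 2-fold higher in both pairs and Per1 and Ciart in the Hgf pair. A match describes the letters in this window and says nothing of binding in these cells.

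Some genes separated the Bdnf from the Hgf libraries and not the genotypes. Rgs5, known as a mural cell gene, had 160, 167, 13.3 and 18 CPM in the members. Glp1r, the receptor for glucagon-like peptide 1, had 25.2, 17.3, 221 and 213 CPM, with no overlap between the pairs. The heat shock genes Hspa1a (302, 314, 79.7 and 65.8 CPM) and Hspa1b (432, 439, 81.9 and 77.2 CPM) were higher in both Bdnf libraries. None of these 4 genes was past 2-fold between iPCKO and control within a pair.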

How the data were processed

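Cells of mouse lung were profiled with the BD Rhapsody whole-transcriptome assay, which reads transcript 3′ ends. According to their methods, the authors aligned reads to GRCm39 and counted UMIs with STARsolo (STAR 2.7.10a in the submitters' processing notes), without a cell filter, and shared reads of several genes by expectation maximization. The deposited matrices hold estimated counts (expected counts) per barcode and gene, and 8.50 to 9.95% of entries were fractional. They were used without normalization. An estimated count of at least 0.5 was taken as a UMI detected, and sums were rounded for exact intervals.

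The cortex libraries and the bead barcode lists were not used here. Members and lists were chosen with earlier results of these data known. UMIs were summed over members and divided by their total, times 1000000 (CPM). Of the listed genes, 2 enter the counts and medians of their lists but are not reported here by name. Log2 ratios had 0.5 UMI added to both counts. A gene was compared from 50 UMIs over both libraries and called past 2-fold from a log2 ratio of 1 or -1. No test was made with 1 library per genotype. Named were the genes of the rule, list genes past 2-fold or standing for their list, the 10 genes on each side of a pair whose counting interval ended farthest from 0, and 15 genes highest in the members against gCap and arterial barcodes. Doublets were scored with Scrublet in scanpy 1.11.5 at an expected rate of 0.1. Intervals were computed with scipy 1.17.1. Positions are from the Gencode annotation of GRCm39, and promoters from RefSeq.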

Additional observations from a re-analysis of the deposited data

Results flagged for a closer look

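In 7 cases a gene past 2-fold in the members was past 2-fold the other way in another endothelial class of the same pair, with at least 50 UMIs over the pair in both classes, and these differences were not tested. In the Bdnf pair, Col18a1 had a log2 ratio of -1.21 in the members and 1.32 in gCap. In the Hgf pair, Cyp1a1 had 1.45 in the members and -2.03 in gCap. The protease gene Ctsh had -1.02 against 1.39, Lox, which encodes lysyl oxidase, -1.37 against 3.18, the ciliary gene Fam183b -1.0 against 1.23 and Mlf1 -1.11 against 1.13. Lmcd1 had -2.04 in the members and 1.48 in arterial barcodes. Most rest on low counts in the members, for example 46 and 30 UMIs of Lox and 32 and 25 UMIs of Mlf1 in Hgf control and Hgf iPCKO.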

How the results depend on the processing

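With 1 library per genotype no library could be left out. No paired analysis was possible because each genotype has 1 library. Among the counts, shares and single genes computed, none past 2-fold changed direction. Leaving out the richest barcode, chosen after seeing the data, left some genes past 2-fold with fewer than 50 UMIs and no ratio. In the Bdnf pair these included Clca1, Reg3g, Cdk1, Hmmr, Npas2, Birc5, Pf4, Ppbp, Dcn and Gm29216. In the Hgf pair they included Mpo, Elane, Prtn3, Cxcl9, Cxcl10, Gbp2b, Chia1, Cmpk2, Gm43302 and S100a8. The log2 ratio of venous shares in the Hgf pair was 0.31 with at least 3 venous genes. Counts of genes past 2-fold followed the counting depth. With members thinned to 1500 UMIs, 69 genes were higher and 68 lower in the Bdnf pair and 226 and 234 in the Hgf pair. A minimum of 20 UMIs gave 373 and 388 in the Bdnf and 636 and 857 in the Hgf pair, and one of 200 UMIs gave 39 and 33 and 133 and 123. Members without a UMI of Gpihbp1, Kit or Aplnr, an alternative chosen after seeing the data, gave 127 and 166 in the Hgf pair from 114 and 130 members. With each gene taken without its richest barcode and at least 50 UMIs left, 90 genes were higher in the Bdnf pair. Other counts stayed within 1.5 times. Of 750 values of single genes under the alternatives other than leaving out the richest barcode, 743 kept their side of 2-fold. Lyz1 in the Bdnf pair had 0.56 with at most 15% mitochondrial UMIs and 0.36 without Scrublet doublets. Without the richest barcode further genes fell under 2-fold, such as Cdkn1c (1.15 to 0.57) in the Bdnf and Scgb1a1 (1.06 to 0.83) in the Hgf pair. Others rose past it, such as Lyz2 (0.44 to 1.11) and Sftpc (0.93 to 1.18) in the Bdnf pair. Retnla in the Hgf pair changed sign, from -0.43 to 2.07, with 12 UMIs left in Hgf control and 88 in Hgf iPCKO. Of 484 list medians 30 moved beyond the typical counting interval of their genes, most of them after that choice of members, among them the interferon list of the Hgf pair at -0.81 over 6 genes. Beyond that interval list medians also changed sign. With at least 3 venous genes, the matrix median of the Hgf pair went from 0.09 to -0.17, the immediate-early median of the Hgf pair from -0.01 to 0.07 and the arterial median of the Bdnf pair from -0.31 to 0.04. The matrix median was -0.45 with a minimum of 20 UMIs and the immediate-early median 0.09 with median-of-ratios scaling. With a minimum of 200 UMIs the angiocrine median of the Bdnf pair went from 0.06 to -0.25 and that of receptors for pericyte ligands in the Hgf pair from 0.13 to -0.24. In members without a UMI of Gpihbp1, Kit or Aplnr, the arterial median of the Bdnf pair was 0.49 over 5 genes. In the Hgf pair of these members, the lymphatic median went from 0.13 to -0.02 over 2 genes and that of receptors for pericyte ligands to -0.50 over 6. The cause was not tested.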
